A study of Yarrowia lipolytica with 6 samples.

Results

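MFE2, POT1 and PAT1 are genes for the later steps of peroxisomal beta-oxidation and for acetyl-CoA thiolases in the oil yeast Yarrowia lipolytica. They were chosen by their names in the authors' deposited table (locus tags YALI0_E15378g, YALI0_E18568g and YALI0_E11099g), and they are 3 of the 9235 features counted. That table lists only genes past the authors' own test, and all 28 genes it names are listed there as lower in the deletion. That the 3 genes fell was therefore known when they were chosen, and is no independent evidence of direction.

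Total RNA was sequenced from the strain CXAU/AI, called wild type in the labels, and from a strain in which SNF1 had been deleted by homologous recombination. The Snf1 kinase of yeasts is known to help cells switch to other carbon sources when glucose is short. Each strain gave 3 libraries that the labels call biological replicates. After a 48 h preculture, both strains grew for 24 h at 30 °C before 1 h with 2% n-decane, an alkane, and 1% uracil. Cells of all 6 libraries were then parted from the decane with 0.1% Triton-X. Every library came after decane, so a difference that was there before it cannot be told apart from one that arose with it. The number of separate deletion clones is not given in the sources used here.

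In beta-oxidation a fatty acyl-CoA is shortened by repeated rounds of oxidation, hydration, a further oxidation and cleavage by a thiolase, which releases acetyl-CoA. In yeasts these rounds run in the peroxisome. Acyl-CoA oxidases, the products of the POX genes, open each round. The multifunctional enzyme encoded by MFE2 carries both the hydratase and the 3-hydroxyacyl-CoA dehydrogenase activity, and the 3-oxoacyl-CoA thiolase encoded by POT1 makes the cleavage. PAT1 encodes an acetoacetyl-CoA thiolase, known from earlier work on this yeast as a gene needed for growth on n-decane.

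Wild type libraries held 33835106 to 38054417 counts and deletion libraries 32315239 to 37094343. SNF1 held 2546 to 3644 counts in the wild type libraries and 0 in each deletion library, so no library went against its label. The test covered 7244 of the 9235 features. It called 1356 lower and 1329 higher in the deletion at an adjusted p under 0.05, by edgeR's quasi-likelihood test.

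The counts are listed by RefSeq transcript and the deposited table by locus tag, so each gene was first tied to a count row by its mean, fold change and standard error. MFE2 was tied to rna-XM_503980.1, POT1 to rna-XM_504109.1 and PAT1 to rna-XM_503808.1. On a scale in which 1 is the usual scatter of such pairs, the tied rows lay at distances of 1.76, 1.57 and 2.40. The next rows on the same chromosome, or with no chromosome given, lay at 47.3, 30.0 and 22.9. Over all chromosomes the next rows lay at 28.5, 30.0 and 15.6, so each tie was still clear. When the fold change was left out of the match, the tied row was still the nearest of 3986 candidates for MFE2 and for POT1. For PAT1 it was then the second nearest. In the RefSeq assembly of strain CLIB89(W29) the 3 rows follow each other along chromosome E as the locus tags do, with PAT1 before MFE2 and POT1 last. The fold changes of the counts and of the deposited table thus match by construction.

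MFE2 stood at 18979, 16546 and 13468 CPM in wild type replicates 1, 2 and 3, and at 323, 499.7 and 502 CPM in deletion replicates 1, 2 and 3. CPM are counts scaled to a common library total, here after TMM scaling. Wild type replicate 1 was the highest and deletion replicate 1 the lowest. The highest deletion library reached 3.72% of the lowest wild type library. The mean went from 16331 ± 2762 CPM in wild type to 442 ± 102 CPM in the deletion (SD, n = 3 each), a 37.0-fold fall (log2 fold change -5.21, SE 0.54, edgeR adjusted p = 1.06e-05).

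POT1 stood at 13330, 10856 and 7607 CPM in wild type replicates 1, 2 and 3. Its levels were 455, 732 and 577 CPM in deletion replicates 1, 2 and 3. Wild type replicate 1 was again the highest and deletion replicate 1 the lowest, and the libraries of each strain spread by 1.75-fold and 1.61-fold. The mean fell 18-fold, from 10598 ± 2870 CPM to 588 ± 139 CPM (SD, n = 3 each, log2 fold change -4.17, SE 0.51, edgeR adjusted p = 4.19e-05).

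PAT1, the acetoacetyl-CoA thiolase gene, stood at 1268, 852 and 740.2 CPM in wild type replicates 1, 2 and 3. In deletion replicates 1, 2 and 3 it stood at 15.4, 18.5 and 15.7 CPM. Wild type replicate 1 was the highest library for PAT1 too, while the deletion libraries lay close together. The highest deletion library reached 2.50% of the lowest in wild type. The mean fell 57.6-fold, from 953 ± 278 CPM to 16.5 ± 1.72 CPM (SD, n = 3 each, log2 fold change -5.85, SE 0.44, edgeR adjusted p = 1.15e-06). Depth did not limit these values: the smallest count of the 3 genes in any library was 578, for PAT1 in deletion replicate 3. That count is 17.9 CPM before TMM scaling, with an exact 95% binomial interval from 16.5 to 19.4 that covers counting error only.

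**Figure D1:**
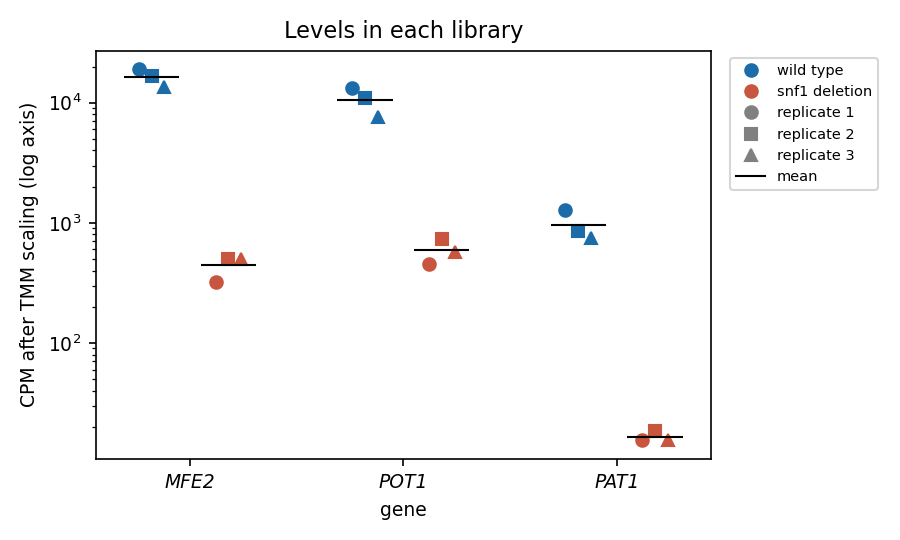
CPM after TMM scaling of MFE2, POT1 and PAT1 in each library, on a log axis; symbols mark replicates and lines the mean of 3 libraries. For each gene all 3 wild type libraries lie above all 3 deletion libraries, with PAT1 going from 953 to 16.5 CPM on average.

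All 3 genes fell, where 18.7% of all features tested were called lower. The wild type and deletion libraries did not overlap for any of the 3, which held for 24.5% of features in that direction. Since the genes were chosen from a list of lowered genes, these counts describe them and show nothing further. A transcript level in bulk RNA does not tell fewer cells with the transcript from less of it in each cell. Of the 7244 features tested, 43 had a lower log2 fold change than PAT1, or 0.594%. For MFE2 the number was 65, or 0.897%, and for POT1 it was 132, or 1.82%. The median over the 7244 was 0.04 on the same scale.

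As the count rows were tied partly by fold change, the same order in the authors' deposited table is no separate evidence. That table gives log2 fold changes of -5.69 for PAT1, -5.06 for MFE2 and -4.02 for POT1. Their standard errors in the authors' deposited table are 0.320, 0.321 and 0.336, and their adjusted p-values 4.95e-68, 1.25e-53 and 4.29e-31. Among the 2840 genes of the authors' deposited table, 40 have a lower value than PAT1, 64 a lower value than MFE2 and 128 a lower value than POT1.

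**Figure D2:**
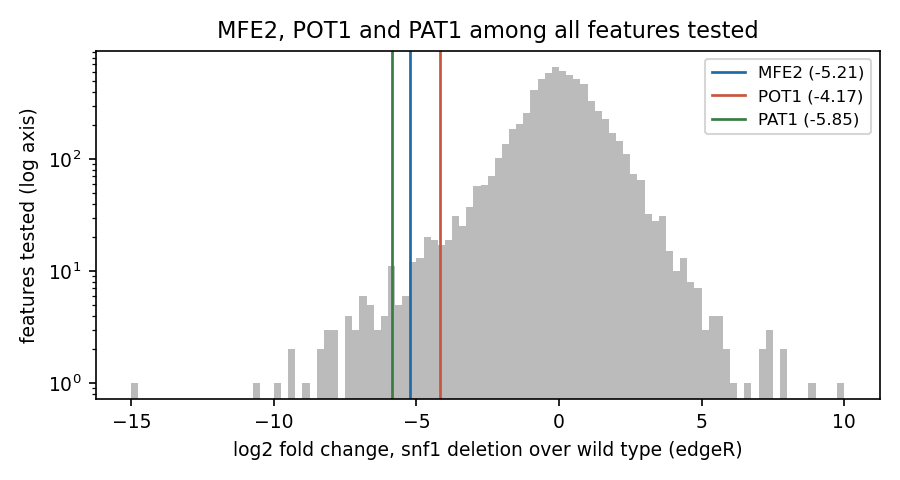
Histogram of the edgeR log2 fold changes (deletion over wild type) of the 7244 features tested, with the number of features on a log axis; coloured lines mark MFE2, POT1 and PAT1. The lines at -5.21, -4.17 and -5.85 stand in the sparse lower tail, where 65, 132 and 43 features lie below them.

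The 3 transcripts together took 2.47 ± 0.608% of a wild type library and 0.120 ± 0.0335% of a deletion library (SD, n = 3 each). Single wild type libraries ranged from 2.03% to 3.16%. MFE2 alone took 1.44 ± 0.297% in wild type and 0.0506 ± 0.0142% in the deletion. POT1 went from 0.937 ± 0.284% to 0.0675 ± 0.0200%, and PAT1 from 0.0849 ± 0.0298% to 0.00189 ± 0.000310%. For each gene and for their sum the libraries of the strains did not overlap. In CPM, 24.5% of all features tested lay lower without overlap, and these genes came from a list of lowered genes. The two-sided exact permutation p was 0.1 for each gene and for the sum, the smallest that 3 libraries against 3 allow.

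The sizes of the 3 falls were compared through the ratio of counts inside each library. This ratio does not depend on scaling, and its change does not depend on transcript length. The log2 ratio of MFE2 to POT1 was 0.51, 0.61 and 0.82 in wild type replicates 1, 2 and 3, and -0.49, -0.55 and -0.20 in deletion replicates 1, 2 and 3. MFE2 counts, not taken per length, exceeded POT1 counts in every wild type library and were below them in every deletion library. The change was -1.06 (SE 0.14), a fall estimated as 2.09-fold larger for MFE2 than for POT1.

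The estimated fall of PAT1 was the largest of the 3. The log2 ratio of POT1 to PAT1 lay between 3.36 and 3.67 in wild type and between 4.88 and 5.30 in the deletion. This was a change of 1.65 (SE 0.16), or 3.14-fold between these thiolase genes. For MFE2 to PAT1 the log2 ratio lay between 3.90 and 4.28 in wild type and between 4.39 and 5.0 in the deletion, a change of 0.59 (SE 0.21). Any 2 of the 3 ratios fix the third, and 49.4% of single features tested lay apart between strains in CPM, in either direction. None of the 3 ratios overlapped between strains. The exact permutation p of each was 0.1, also after adjustment over the 3 pairs, and a design of 3 against 3 cannot reach a lower one.

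**Figure D3:**
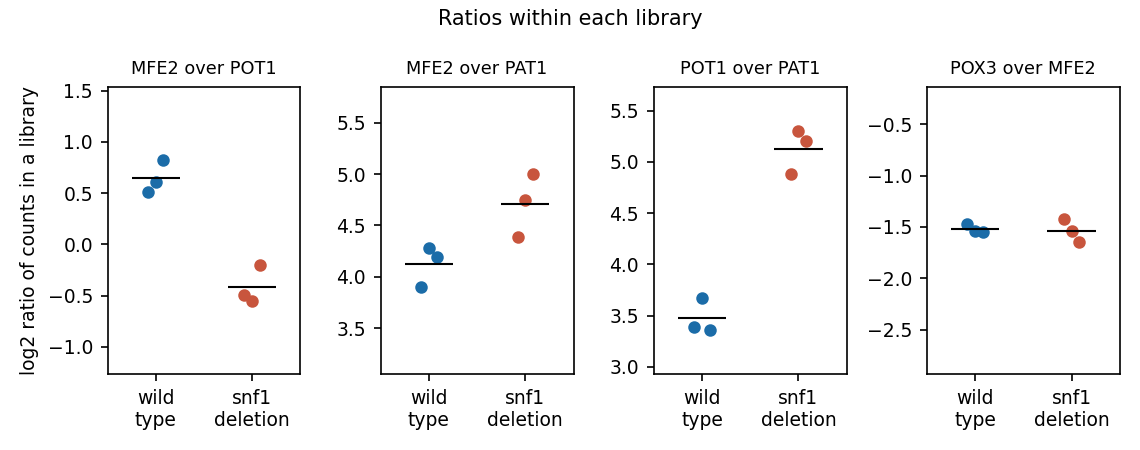
Log2 ratio of the counts of 2 genes inside each library, with 1 point per library and a line at the mean of each strain; every panel spans the same height. The ratios of MFE2 to POT1, MFE2 to PAT1 and POT1 to PAT1 shift by -1.06, 0.59 and 1.65 without overlap, while the ratio of POX3 to MFE2 overlaps between strains.

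The acyl-CoA oxidases, which act just before MFE2, were the nearest genes of the pathway for comparison. All 6 POX genes fell in the counts, from -4.93 for POX2 to -9.46 for POX4 on the log2 scale, with a median of -7.41, where 18.7% of all features tested were lower. All 6 had been tied through the authors' deposited table of genes past their test, so that they passed here is a description. POX3 was singled out as the feature nearest to MFE2 in these same 6 libraries, so a ratio that hardly changed restates that choice. The log2 ratio of POX3 to MFE2 was -1.47, -1.54 and -1.55 in wild type replicates 1, 2 and 3 and -1.42, -1.54 and -1.65 in deletion replicates 1, 2 and 3. Its change was -0.01 (SE 0.07), it lay between -0.07 and 0.04 when single libraries were left out, and its sign was not fixed. The log2 ratio of POX2 to MFE2 was higher in the deletion by 0.28 (SE 0.04).

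Summed over the 6 oxidase genes, the count was 2.09 to 2.49 times that of MFE2 in wild type libraries and 1.45 to 1.54 times in deletion libraries. Against POT1 the same sum was 2.98 to 4.13 times in wild type and 1.01 to 1.26 times in the deletion. These shifts of the sum were 1.54-fold against MFE2 and 3.22-fold against POT1. The log2 ratio of POX3 alone to POT1 was -0.88 ± 0.13 in wild type and -1.95 ± 0.13 in the deletion (SD, n = 3 each), and that of POX2 to POT1 was 0.36 ± 0.12 and -0.42 ± 0.21. For 5 of the 7 added ratios, which set oxidase genes or the neighbour FALDH2 against MFE2 or POT1, the libraries of the strains did not overlap and the exact permutation p was 0.1 (0.14 adjusted over the 7), the lowest within reach. Those of POX3 and of FALDH2 to MFE2 overlapped. The sum includes POX2 and POX3, so the 7 ratios are not independent of each other.

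Other genes of the pathway were read from lists drawn up by locus tag, with earlier results of these data known. Of 19 listed genes besides the 3, the authors' deposited table has 16 lower, 1 higher and 2 not in it. That whole table holds 1459 lower and 1381 higher genes. Of the 14 that could be tied to counts, 13 fell and 1 rose, where 18.7% of all features tested were lower and 18.3% higher. A gene could be tied only if it was in that table of genes past the authors' test, so nothing is read from these counts against the shares over all features. Their median log2 fold change was -4.86, which lies between the values of POT1 and MFE2.

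Of the 19, 5 had been listed for fatty acid activation and entry into the peroxisome, and these 5 are lower in the authors' deposited table, as are 1459 of its 2840 genes. FAT1, named there and known for its part in fatty acid transport, fell from 4125 ± 962 CPM to 149 ± 66.4 CPM (SD, n = 3 each, log2 fold change -4.79, SE 0.53, edgeR adjusted p = 1.95e-05). YALI0_D04246g changed by -2.87 on the log2 scale. FAA1, a fatty acyl-CoA synthetase gene, is at -1.91 in the authors' deposited table and was not tied. Also not tied, YALI0_A06655g has -2.12 and YALI0_E03058g has -4.35 in the authors' deposited table.

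Peroxisomal enzymes are made in the cytosol and carried in by import receptors, and 3 tags had been listed for these. YALI0_E06831g fell from 1028 ± 91.0 CPM to 58.2 ± 6.56 CPM (SD, n = 3 each, log2 fold change -4.14, SE 0.39, edgeR adjusted p = 5.09e-06), beside -4.17 for POT1. YALI0_F28457g changed by -3.04, and YALI0_F18480g is not in the authors' deposited table and was not read in the counts. The glyoxylate cycle takes up acetyl-CoA that thiolases release. All 3 of its listed tags fell, where 18.7% of all features tested were lower. These tags were tied through the authors' deposited table of genes past their test, so that they fell is a description. YALI0_E15708g changed by -5.03, YALI0_C16885g by -3.18 and YALI0_D19140g by -2.24 on the log2 scale.

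For other thiolase and acetoacetyl-CoA genes 2 tags had been listed, and 1 of them was read in the counts. This tag, YALI0_F30481g, rose from 11.6 ± 6.19 CPM to 55.4 ± 21.2 CPM (SD, n = 3 each, log2 fold change 2.25, SE 0.44, edgeR adjusted p = 0.00146). It was the only riser among the 14 tied genes. The sources used here do not annotate this tag, so its rise is not read as that of a thiolase gene. YALI0_B08536g is not in the authors' deposited table and was not read in the counts.

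**Figure D4:**
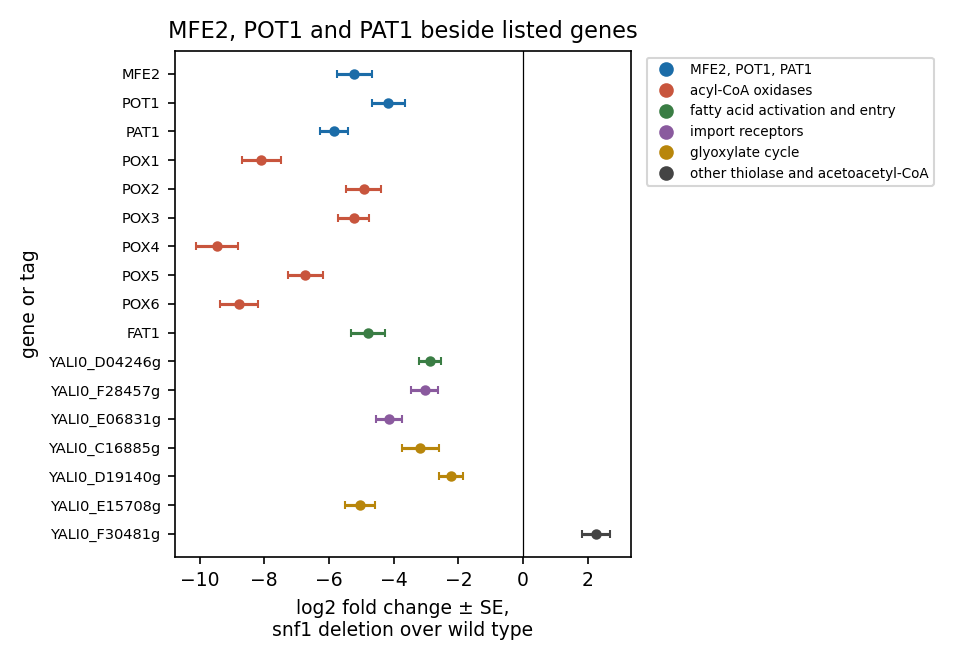
Log2 fold change (deletion over wild type) with its standard error for MFE2, POT1, PAT1 and the 14 listed genes tied to counts, coloured by list; n = 3 libraries per strain. All but YALI0_F30481g, at 2.25, lie below 0, and POX4, POX6, POX1 and POX5 lie below PAT1.

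Genes with the most similar pattern were found by the root mean square difference of log2 CPM over the 6 libraries, after each feature was centred on its own mean. For MFE2 the nearest were POX3 at 0.0703, POX2 at 0.146, YALI0_C00429g at 0.148, YALI0_E15708g at 0.170 and YALI0_B08030g at 0.230. For POT1 they were an untied row at 0.184, YALI0_F02497g at 0.189, YALI0_E34672g at 0.199, YALI0_F30987g at 0.211 and YALI0_E06831g at 0.227. PAT1 had an untied row at 0.179 and YALI0_B10340g at 0.233 as nearest, followed by POX3 at 0.321, YALI0_C00429g at 0.331 and YALI0_B08030g at 0.350. MFE2 and PAT1 thus shared 3 of their 5 nearest features, and POT1 shared none with either. Between the genes themselves the difference was 0.361 for MFE2 and PAT1, 0.550 for MFE2 and POT1 and 0.840 for POT1 and PAT1. With only 2 strains, this measure mostly ranks features by how near their fold changes are.

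The genes next to each on the chromosome were read in the gene order of the CLIB89(W29) assembly, a strain other than CXAU/AI. Of 18 places, 3 on each side of each gene, 13 had a count row and 11 were tested. Of these 11, 5 fell and 6 did not pass, against 18.7% of all features called lower.

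The gene next to MFE2 is FALDH2, a fatty aldehyde dehydrogenase gene of an earlier step of alkane use, with the locus tag YALI0_E15400g. FALDH2 stood at 2014, 3258 and 2840 CPM in wild type replicates 1, 2 and 3, and at 74.8, 104 and 121 CPM in deletion replicates 1, 2 and 3. It fell by 4.76 on the log2 scale (log2 fold change -4.76, SE 0.47, edgeR adjusted p = 7.35e-06), while rna-XM_503982.1, 2 places further on, had -0.73 (adjusted p = 0.187). The neighbours were not parallel in wild type, where replicate 1 was the highest library for MFE2 and the lowest for FALDH2. The log2 ratio of FALDH2 to MFE2 overlapped between strains, with a change of 0.47 (SE 0.32, exact permutation p = 0.2). On the other side, the gene directly before MFE2 had no count row, and rna-XM_503977.1 and rna-XM_503978.1 were listed with 0 counts in all 6 libraries. A floor of 3 counts of the total is at most 0.0928 CPM before TMM scaling in any library, and covers counting error only. The counting options were not given, so 0 counts need not mean that no transcript was there.

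Around POT1 the neighbours differed among themselves. The gene just before it, rna-XM_504108.2, stood at 322 ± 44.1 CPM in wild type and 400.2 ± 75.3 CPM in the deletion (SD, n = 3 each, log2 fold change 0.31, edgeR adjusted p = 0.498). The one before that, rna-XM_504107.1, had a log2 fold change of 0.00 (adjusted p = 0.994). Past these, YALI0_E18502g fell (-3.27, adjusted p = 6.68e-05). After POT1, rna-XM_504110.1 fell with -1.88 and YALI0_E18612g with -1.51 on the log2 scale (edgeR adjusted p = 0.00031 and 0.00138). The log2 fold change of POT1, -4.17, was below that of each of them.

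Of the 6 places around PAT1, 4 had a count row, and the gene directly before it had none. Among these 4, rna-XM_503809.1, the next gene along, fell. It went from 33.7 ± 4.83 CPM to 10.7 ± 3.64 CPM (SD, n = 3 each, log2 fold change -1.65, SE 0.33, edgeR adjusted p = 0.0018). The other neighbours of PAT1 tested, rna-XM_503807.1, rna-XM_503810.1 and rna-XM_503811.2, had log2 fold changes of -0.44, -0.09 and -0.56 and did not pass (adjusted p from 0.216 to 0.866). No source used here says whether counting was by strand, and reads from overlapping or antisense transcripts cannot be told apart.

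**Figure D5:**
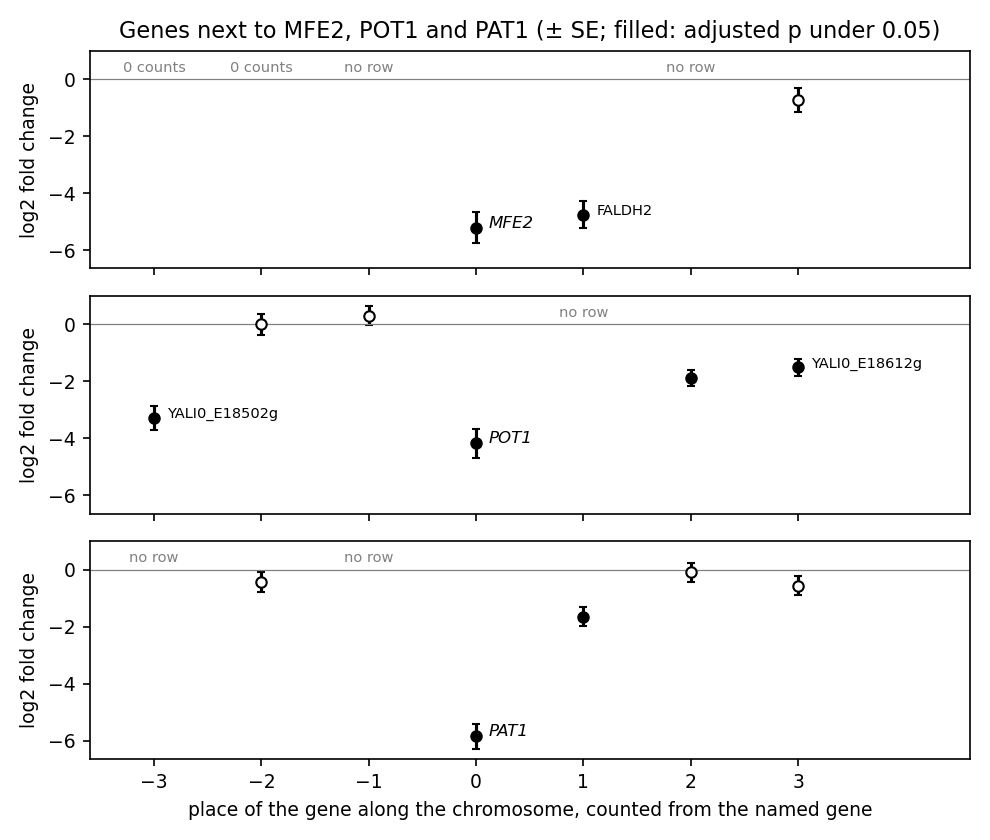
Log2 fold change (deletion over wild type) with its standard error for the 3 genes on each side of MFE2 (top), POT1 (middle) and PAT1 (bottom), in the gene order of the CLIB89(W29) assembly; filled points passed an adjusted p of 0.05. FALDH2 at -4.76 stands beside MFE2, and every neighbour lies above the named gene of its panel.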

How the data were processed

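RNA sequencing gave 3 wild type and 3 snf1 deletion libraries. The submitters' processing notes list DESeq2 2.11.40.7, StringTie, HISAT2 2.2.1 and Trimmomatic 0.38.0. Build and counting options were not given in the sources used here. The authors deposited raw counts per transcript for each library. In the authors' deposited DESeq2 table the means are of normalised counts (signal), with log2 fold changes and standard errors (read as score columns, because a stray value ends the fold-change column) and p-values.

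Here, edgeR 4.0.16 (R 4.3.3) compared the groups over all 6 libraries by quasi-likelihood test, with TMM scaling, filterByExpr (minimum count 10, minimum total 15) and Benjamini-Hochberg adjustment at 0.05. Each SE is the absolute log2 fold change over the square root of F. The test was tried on simulated counts. Log2 ratios used a prior count of 0.5. DESeq2 1.42.0 and limma 3.58.1 gave alternatives.

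For the tie, shrunken fold changes (DESeq2, normal prior) were set beside the deposited ones. Deposited means were a median of 0.810 times those of the counts. A tie had to be mutual, with a distance under 30 with the next row no nearer than 5 and 3 times that distance, and 1076 of 2111 genes were tied. Some ties of listed genes or neighbours may be wrong.

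Genes and lists were chosen with earlier results of these data known. The rule named MFE2, POT1, PAT1, all listed genes and the 5 most similar features of each. Neighbours, the tie, and ratios to POX genes and FALDH2 were added after seeing the data. The labels call the replicates biological and say no more, so what varied between them is not known. The edgeR p-values set each difference against the spread between these libraries, with information shared over all features tested. Replicates differed by more than sampling noise in every pair (chi-square per feature 281 or above). Promoter motifs and protein sequences were not analysed here.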

Additional observations from a re-analysis of the deposited data

How the results depend on the processing

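MFE2, POT1 and PAT1 stayed lower with an adjusted p under 0.05 in all 14 alternatives run (other scaling, filters, DESeq2, limma-voom, the replicate block and leaving out each library), with a largest p of 0.000518. Leaving out single libraries gave log2 fold changes from -5.32 to -5.01 for MFE2, from -4.37 to -3.98 for POT1 and from -5.99 to -5.60 for PAT1. Library size only shifted the median of all features by 0.36 and gave -4.83, -3.79 and -5.49 for MFE2, POT1 and PAT1. Upper-quartile scaling shifted it by 0.35. Features called were then 1946 higher and 936 lower, and 2005 higher and 966 lower, against 1329 and 1356. Leaving out single libraries gave 873 to 1351 features higher and 951 to 1366 lower, with the lowest numbers without deletion replicate 3.

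The 13 falls and 1 rise among listed genes held in all 14. Of 462 further values for 33 named features, 461 kept their side of the threshold. The other was rna-XM_503982.1, which passed without wild type replicate 1 (-1.12, edgeR adjusted p = 0.023). No value changed direction where the main fit or the alternative passed. Some values that did not pass changed sign: rna-XM_503810.1 ran from -0.22 to 0.28 and rna-XM_504107.1 from -0.21 to 0.38. The change of the POX3 to MFE2 ratio ranged from -0.07 without deletion replicate 1 to positive values, 0.01 without wild type replicate 1 and 0.04 without deletion replicate 3. Differences between genes ranged from -1.17 to -0.97 for MFE2 minus POT1, from 0.45 to 0.75 for MFE2 minus PAT1 and from 1.57 to 1.78 for POT1 minus PAT1. For MFE2 minus PAT1 the exact permutation p was 0.2 without any one wild type library and 0.1 without any one deletion library. For the other pairs it stayed at 0.1.

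With the replicate number as a block, 1412 features were higher and 1342 lower, and MFE2, POT1 and PAT1 had -5.22, -4.16 and -5.81. Same-numbered libraries correlated in their deviations at 0.051, 0.146 and 0.141, and 5 of 6 libraries correlated best with their own number. The block changed no call for these 3 genes.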
